A study of Mus musculus with 136 samples.

Results

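Chromatin-associated RNA of mouse bone marrow-derived macrophages labelled Nfkb1-/- was compared with that of wild-type macrophages after 1 h of lipid A. The comparison holds 6 of the 136 libraries of the series, 3 of each genotype, which carry the replicate numbers 1 to 3 and were compared within replicate number. Every gene with at least 1 RPKM (reads scaled by gene length and by library depth) in 3 or more of these 6 libraries was included, which gave 2313 of the 15196 genes measured. The members nearest the limit were Gla and Cope, whose third-highest values were 1.0003 and 1.0013 RPKM, and the nearest genes outside it were Atp5l (0.99979) and Htt (0.99932).

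Bone marrow of the wild-type mice, of the strain written C57/B16 in the labels, and of the Nfkb1-/- mice was cultured for 6 days in M-CSF. Both genotypes of the 6 libraries then received lipid A for 1 h, and no other allele or agent is named for either. The further libraries of the Nfkb1 series had 0, 0.5, 2 or 6 h of lipid A, again with 3 replicates of each genotype. Libraries of Nfkbiz-/- macrophages and their own wild type (2 of each at 1 h), wild-type macrophages of the Nfkbiz, Bcl3 and Nfkbid series, wild-type macrophages pretreated with an ERK inhibitor or DMSO, and macrophages labelled J2 (wild type and Nfkb1-/-) were used for further comparisons. Chromatin was isolated from nuclei and its RNA was made into stranded libraries. The lipid A dose, the sex and age of the mice, the number of mice behind a library and the construction of the Nfkb1 allele are not given in the sources used here. Nothing states that the replicates came from separate mice, so p-values measure the spread between these libraries, which may be technical.

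Nfkb1 encodes p105, which is processed to p50, a DNA-binding subunit of NF-kB that has no activation domain of its own. p50 acts as a dimer with RelA or c-Rel or with itself, and nuclear IkB proteins such as IkBz and Bcl3 bind p50 dimers at promoters. Unprocessed p105 holds the kinase TPL2, which activates MEK and ERK downstream of TLR4, the receptor for lipid A. RNA that is still attached to chromatin is mostly RNA in the course of transcription, so its level follows recent synthesis more closely than the level of mature mRNA does.

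The promoters of 6 genes of the comparison are printed because they show the kinds of element that NF-kB and interferon-responsive factors bind. Gpr132, Ebi3 and Cxcl1 were lower in the knockout and Ifnb1, Neurl3 and Ifit3 were higher. Each sequence holds the 170 bases from -200 to -31 relative to the RefSeq transcription start (GRCm38.p6), read 5′ to 3′ on the strand of the gene. Capitals mark a match to the kB consensus on either strand, and in Ifit3 they mark an interferon-response repeat (GAAA, any 2 bases, GAAA), which lies there on the opposite strand.
Gpr132 (chr12:112860947-112861116, - strand): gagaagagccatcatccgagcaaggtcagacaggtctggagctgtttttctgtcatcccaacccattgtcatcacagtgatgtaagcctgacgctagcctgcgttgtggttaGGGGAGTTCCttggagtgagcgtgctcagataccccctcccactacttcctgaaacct
Ebi3 (chr17:55952423-55952592, + strand): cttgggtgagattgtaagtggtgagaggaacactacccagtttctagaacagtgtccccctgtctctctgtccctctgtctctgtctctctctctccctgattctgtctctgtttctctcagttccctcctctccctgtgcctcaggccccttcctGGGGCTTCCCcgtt
Cxcl1 (chr5:90891045-90891214, + strand): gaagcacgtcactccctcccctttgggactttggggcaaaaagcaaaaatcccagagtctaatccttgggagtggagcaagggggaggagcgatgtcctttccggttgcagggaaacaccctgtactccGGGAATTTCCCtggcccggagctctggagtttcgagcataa
Ifnb1 (chr4:88522825-88522994, - strand): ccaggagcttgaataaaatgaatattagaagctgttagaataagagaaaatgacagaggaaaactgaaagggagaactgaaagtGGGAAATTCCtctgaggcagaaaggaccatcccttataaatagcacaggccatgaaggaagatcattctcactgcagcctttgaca
Neurl3 (chr1:36273456-36273625, - strand): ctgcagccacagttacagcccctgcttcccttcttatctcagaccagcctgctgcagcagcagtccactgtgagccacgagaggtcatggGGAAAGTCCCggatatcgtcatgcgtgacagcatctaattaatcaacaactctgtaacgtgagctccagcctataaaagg
Ifit3 (chr19:34583329-34583498, + strand): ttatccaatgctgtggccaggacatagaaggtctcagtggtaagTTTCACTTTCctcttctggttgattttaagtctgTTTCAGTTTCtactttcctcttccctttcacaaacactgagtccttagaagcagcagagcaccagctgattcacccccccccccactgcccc
RefSeq promoters of 300 bases around the start were matched by symbol for 48 of the 62 lower, 17 of the 19 higher and 1571 of all 2313 genes. The kB consensus, searched on both strands, was found in 8 lower genes (16.7%), 4 higher genes (23.5%), 10.1% of the genes tested and 8.19% of all 27025 RefSeq promoters. Besides the printed genes, the lower genes Tnfaip2, Zbtb7a, Bcl3, Tmem63b and Inf2 and the higher genes H2-Q4 and Fam102b held it. The interferon-response repeat, also searched on both strands, was found in Ifitm2 alone among the lower genes (2.08%), in Ifit3 and Rsad2 among the higher (11.8%), in 4.46% of the genes tested and in 3.49% of all promoters. The AP-1 sequence TGACTCA was found in 6.25% of the lower, 5.88% of the higher and 3.95% of the tested genes, and in 5.17% of all promoters. The median GC content was 64.2% in lower, 55.3% in higher and 62.3% in all tested genes. A match is a sequence feature and does not show binding.

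The 6 libraries held 10.7 to 32.4 M reads, and replicate 1 was the shallowest in both genotypes (10.7 and 11.7 M). Macrophage markers were present in every library, with a summed level of 29.2 to 63.3 RPKM in wild type and 37.3 to 69.0 in the knockout. Of the 9 listed genes measured, 8 reached 1 RPKM in at least 1 library, among them Csf1r, Mertk, Maf and Cd14, and 6 passed the limit for testing. Of 10 neutrophil and granulocyte markers 9 were under 0.1 RPKM throughout, with a sum of 0.267 to 0.404 RPKM in wild type and 0.185 to 0.369 in the knockout. Summed dendritic cell, lymphocyte, mast cell, erythroid and stromal markers did not exceed 0.179 RPKM in any library. RNA of Nfkb1 itself was 8.77, 24.0 and 17.1 RPKM in wild-type replicates 1 to 3 and 7.92, 21.3 and 16.1 RPKM in the knockout (log2 difference -0.13 ± 0.19 SE, adjusted p = 0.77). That value counts reads over the whole gene, introns included, so it checks neither the deletion nor the protein, and the genotypes are those of the labels.

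**Figure D1:**
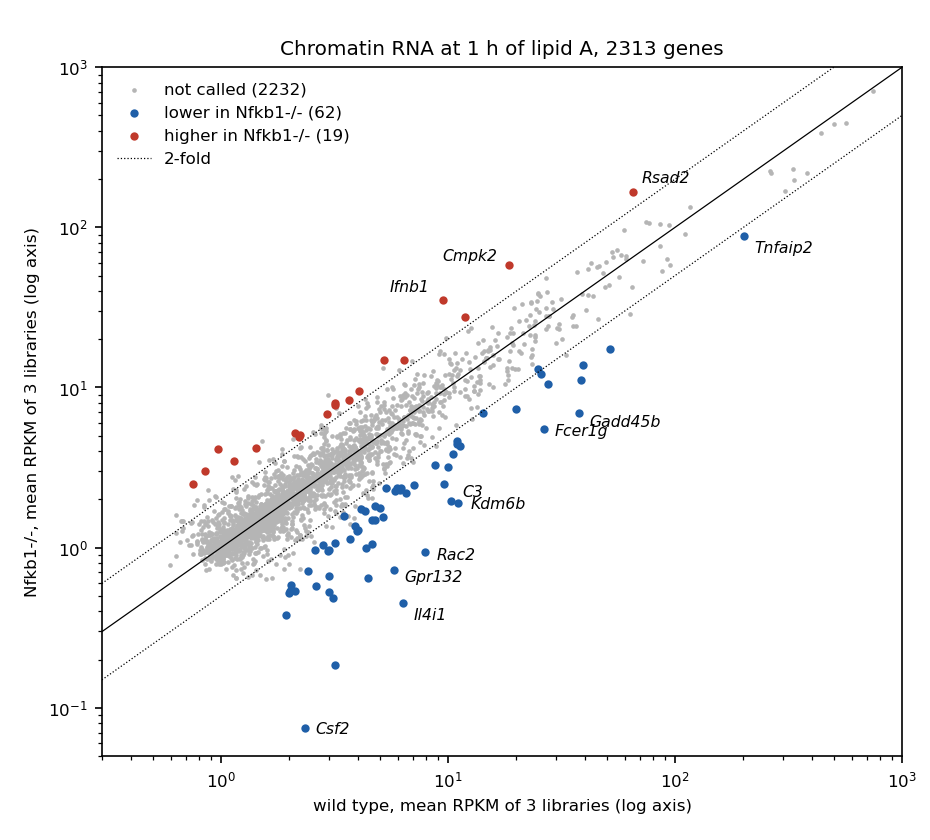
Mean RPKM of the 3 Nfkb1-/- libraries against the mean of the 3 wild-type libraries at 1 h of lipid A for 2313 genes, both on log axes, with the line of equality and dotted lines at 2-fold. Blue points mark the 62 genes lower and red points the 19 genes higher in the knockout by limma, and Csf2 lies farthest below the line.

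After 1 h of lipid A the knockout had less RNA from a set led by Il4i1, Rac2, Micall2, Gadd45b, Gpr132, Kdm6b and Csf2, and more from a smaller set led by Ifnb1, Cmpk2 and Rsad2. Differences are on the log2(RPKM + 0.5) scale, which understates changes of genes near or under 1 RPKM, and are followed by the standard error. By limma with the replicate number as a block, 62 genes (2.68% of those tested) were lower and 19 (0.821%) higher at an adjusted p under 0.05 and at least 2-fold. By the adjusted p alone the counts were 146 (6.31%) and 110 (4.76%). All 62 and all 19 moved the same way in the 3 replicate pairs, as did 1306 of all 2313 genes, and the median over all genes was 0.01. Without the block the counts were 28 and 1. The higher set depended on single pairs, with 35 genes without replicate 1, 18 without replicate 2 and 10 without replicate 3, against 65, 47 and 62 for the lower set. All 3 knockout libraries lay below all 3 wild-type libraries in 4.54% of the genes and above them in 1.86%, which held 46 of the 62 lower and 7 of the 19 higher genes. Of 18 genes that passed the RPKM limit only through wild type, 13 were among the lower genes, so their place in the comparison rested on wild-type levels. Fewer cells with a transcript and less of it per cell cannot be told apart in these bulk libraries.

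Il4i1, a secreted amino acid oxidase (chromosome 7, 52091658 to 52096179, mm9), had 7.20, 8.50 and 3.36 RPKM in wild-type replicates 1 to 3 and 0.322, 0.414 and 0.620 RPKM in the knockout. The groups did not overlap, and the difference was -2.77 ± 0.26 (limma adjusted p = 4.4e-06). Its reads cannot be separated from those of Il4i1b and Tbc1d17, whose spans it overlaps, and Il4i1b was lower too (-1.01 ± 0.22). Rac2, a small GTPase of blood cells that takes part in the NADPH oxidase (chromosome 15, 78389599 to 78403213), had 4.54, 11.9 and 7.21 RPKM in wild type and 0.472, 1.09 and 1.26 in the knockout (-2.49 ± 0.21, adjusted p = 1.1e-06). Replicate 2 was the highest wild-type library for Rac2, and each knockout library was far below its pair. Micall2, a MICAL-like protein, fell from 2.07, 4.35 and 3.14 RPKM to 0.116, 0.0948 and 0.346 (-2.40 ± 0.18). Gpr132, a G protein-coupled receptor, fell from 3.98, 8.02 and 5.33 RPKM to 0.341, 0.795 and 1.05 (-2.35 ± 0.21, adjusted p = 2.3e-06).

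Kdm6b, the histone H3K27 demethylase JMJD3 (chromosome 11, 69212016 to 69229696), had 12.6, 9.65 and 11.1 RPKM in wild type and 2.41, 1.05 and 2.28 RPKM in the knockout. Its difference of -2.31 ± 0.14 had the smallest limma adjusted p of the genes named here (5.1e-08). Gadd45b, a stress-induced regulator of p38 and JNK signalling, had 33.1, 26.9 and 52.6 RPKM in wild type and 3.69, 7.99 and 9.15 in the knockout (-2.39 ± 0.33). Fcer1g, the signalling chain of Fc receptors, had 24.8, 32.5 and 22.4 RPKM in wild type and 4.17, 8.02 and 4.22 in the knockout (-2.22 ± 0.27). In all 3 genes the highest knockout library stayed below the lowest wild-type library. Adamts4, a metalloprotease gene, did not reach the RPKM limit in enough libraries and was not tested, with 0.878, 2.31 and 0.357 RPKM in wild type and 0.00705, 0.0154 and 0.00584 in the knockout, which are 1, 5 and 2 reads.

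Csf2, the gene of the growth factor GM-CSF (chromosome 11, 54060772 to 54063401), had 2.63, 1.41 and 3.02 RPKM in wild type, or 74, 120 and 205 reads. In the knockout it had 0.0326, 0.0570 and 0.135 RPKM, or 1, 4 and 10 reads, where a value of 1 read is also given to genes with none. The difference of -2.27 ± 0.16 (limma adjusted p = 2.4e-07) depends on the added constant, at -3.79 with 0.1 and -1.61 with 1 in place of 0.5. Csf2, Il4i1, Micall2, Fam107b and Cd81 passed the RPKM limit only through wild type. C3, the central complement component, fell from 10.5, 15.5 and 5.09 RPKM to 1.83, 2.67 and 1.36 (-2.05 ± 0.21). The further genes among the 15 largest were Fam107b (-2.08), the tetraspanin gene Cd81 (-1.82), the LIM-domain gene Fhl3 (-1.77), the glycosyltransferase gene Mgat4b (-1.73), the metallothionein gene Mt2 (-1.67) and Ebi3, a subunit of interleukin 27 (-1.65 ± 0.36, adjusted p = 0.0063). Ebi3 was not called without replicate 3, and the other 14 were called with each replicate pair left out in turn.

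**Figure D2:**
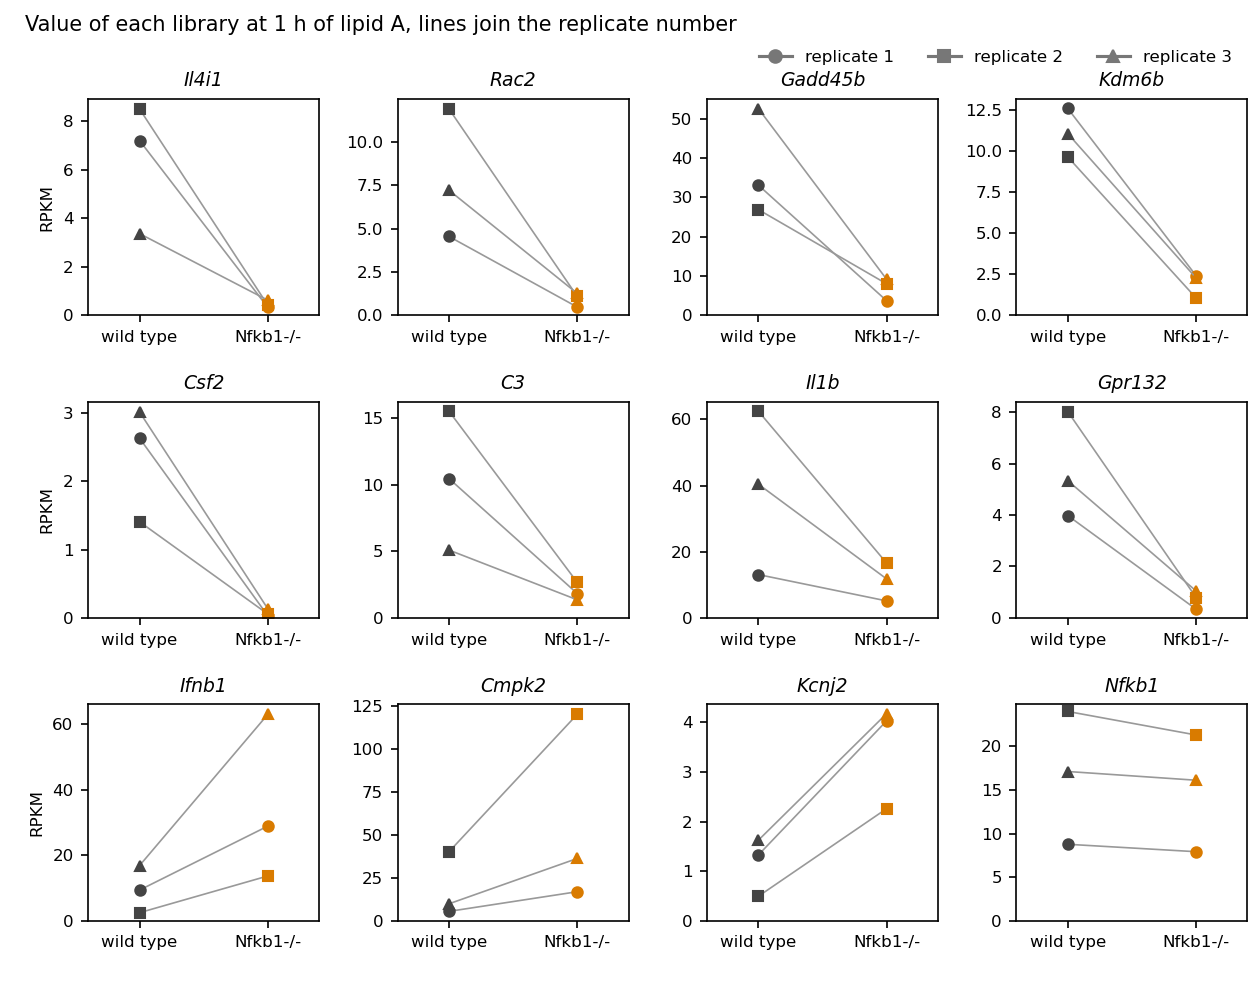
RPKM of each of the 6 libraries at 1 h for 12 genes, wild type (grey) and Nfkb1-/- (orange), with 1 symbol per replicate number and lines joining libraries of the same number. The axis of each panel starts at 0. Every line falls in the first 8 panels and rises in Ifnb1, Cmpk2 and Kcnj2, while the Nfkb1 lines stay close to level.

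Cytokine genes were lower in 4 cases and higher in 1, against 2.68% and 0.821% of all genes. Of 28 listed genes 12 were tested, 10 of them below 0, with a median of -0.64 against 0.01 for all genes. Il1b, which encodes the precursor of interleukin 1 beta (chromosome 2, 129190314 to 129196875), had 13.1, 62.5 and 40.4 RPKM in wild type and 5.15, 16.6 and 11.8 in the knockout (-1.63 ± 0.34, limma adjusted p = 0.0044). Each knockout library was below its pair, although the groups overlapped because replicate 1 was low in both genotypes. Il1b was not called with 1 block term per number for the whole series (adjusted p = 0.1) or without the block (0.351). Its span also overlaps that of Il1bos. Pdgfb, a growth factor gene, fell from 6.82, 2.51 and 2.60 RPKM to 2.44, 0.345 and 1.00 (-1.40 ± 0.17). Il1a (-0.65) and Tgfb1 (-0.66) were under 2-fold, and Il10 was at -0.32 ± 0.27 with an adjusted p of 0.56. Edn1, the endothelin gene, was at 0.95 ± 0.17 (adjusted p = 0.0018), short of 2-fold.

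Chemokine genes mostly did not pass the test: of 10 tested, 1 was lower and 0 higher, with a median of 0.11. Of all genes 2.68% were lower and 0.821% higher. Cxcl1, a neutrophil attractant, was the gene called, with 26.2, 13.7 and 34.8 RPKM in wild type and 12.9, 4.51 and 21.7 in the knockout (-1.06 ± 0.27, limma adjusted p = 0.017). Its groups overlapped, and it was not called without replicate 2, without replicate 3 or with 1 block term per number for the whole series. Cxcl2, the neighbouring gene with a like function, had 79.8, 29.1 and 149 RPKM in wild type and 92.03, 35.0 and 188 in the knockout (0.27 ± 0.25, adjusted p = 0.61). Cxcl2 thus did not pass the test, and the difference between Cxcl1 and Cxcl2 was not tested.

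Among the NF-kB and IkB genes 5 were tested, all 5 below 0, as were 1105 of all 2313 genes. Their median was -0.46 and 1 was called lower, against 2.68% of all genes. Bcl3, which encodes a nuclear IkB protein that binds p50 dimers, had 3.57, 15.99 and 6.79 RPKM in wild type and 0.737, 5.92 and 3.20 in the knockout (-1.35 ± 0.28, limma adjusted p = 0.0046). The groups overlapped through replicate 2, the highest in both. Rela was at -0.26 ± 0.18, Rel at -0.46 ± 0.19 and Nfkbia, the gene of IkBa, at -0.55 ± 0.18 (adjusted p = 0.058). Of 10 tested genes of NF-kB feedback and cell survival, 3 were lower, against 2.68% of all genes, and 0 higher (median -0.41, 9 below 0). Besides Gadd45b these were Tnfaip2, from 219, 149 and 235 RPKM to 88.7, 69.6 and 105.5 (-1.18 ± 0.27), and Zc3h12a, the gene of an RNase that degrades cytokine mRNAs, from 8.66, 13.1 and 11.1 RPKM to 3.66, 4.18 and 6.06 (-1.16 ± 0.19). Tnfaip2 lost its call with each of the 3 pairs left out in turn and with the series-wide block term, and Zc3h12a without replicate 2.

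Genes of the p105, TPL2 and ERK kinases themselves gave 0 calls among 6 tested, with a median of -0.39. Map2k3 (-0.89, limma adjusted p = 0.0012) and Map2k1 (-0.70) passed the adjusted p but not 2-fold. Of 5 tested feedback targets of ERK signalling 2 were lower, against 2.68% of all genes, all 5 were below 0 and the median was -0.54. Dusp5, a nuclear ERK phosphatase, had 4.08, 6.18 and 10.9 RPKM in wild type and 1.16, 2.09 and 4.09 in the knockout (-1.38 ± 0.17, adjusted p = 4.6e-05). Each knockout library was below its pair, and knockout replicate 3 reached the level of wild-type replicate 1. Dusp2, a further phosphatase of MAP kinases, was at the edge of the call at -1.003 ± 0.28 (adjusted p = 0.029), with 14.9, 14.5 and 13.3 RPKM in wild type and 6.44, 8.66 and 5.76 in the knockout. Although the groups did not overlap, it lost its call with each of the 3 pairs left out in turn and with the series-wide block term.

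Of 13 immediate-early genes tested 2 were lower and 1 higher, against 2.68% and 0.821% of all genes, with a median of -0.33. Ier5 fell from 6.29, 1.43 and 5.25 RPKM to 2.78, 0.493 and 1.79 (-1.11 ± 0.14). Zfp36, whose protein destabilises cytokine mRNAs, fell from 10.2, 24.1 and 42.4 RPKM to 4.90, 10.8 and 20.8 (-1.04 ± 0.25), and was not called without replicate 2 or without replicate 3. Jun moved the other way, from 3.14, 0.930 and 2.55 RPKM to 6.12, 2.83 and 5.78 (1.04 ± 0.21, limma adjusted p = 0.0034), and was not called without replicate 2 or without replicate 3. Egr1 had 0.673, 0.362 and 0.815 RPKM in wild type and 0.0685, 0.170 and 0.189 in the knockout. It lay under the RPKM limit and was not tested at 1 h.

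Receptor and adaptor genes for TLR4 and cytokine signals gave 1 lower and 0 higher of 15 tested (median -0.12). Of all genes 2.68% were lower and 0.821% higher. Ifnar1, a chain of the type I interferon receptor, had 2.67, 6.87 and 4.73 RPKM in wild type and 1.25, 1.76 and 2.42 in the knockout (-1.14 ± 0.19, limma adjusted p = 0.00082), and was not called without replicate 2. Its partner chain gene Ifnar2 was at -0.89 ± 0.15, short of 2-fold. Tlr4 was at 0.38, Myd88 at -0.01 and Cd14 at 0.13, none of them past the adjusted p. Of 12 effector and metabolic genes 2 were lower (Il4i1 and C3) and 1 higher (Ch25h), against the same shares of all genes. Their median was 0.22. A list of 10 genes described earlier as IkBz targets had 4 tested members, with Il4i1 and Ebi3 lower, Edn1 at 0.95 and Ccl2 at 0.02. Lists of LXR and sterol genes (4 tested), proliferation genes (2), nuclear-retained RNAs (5) and heat-shock genes (1) gave 0 calls in either direction by limma.

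The lower genes outside these lists had various known roles. The AP-1 family genes Batf (-1.60 ± 0.20) and Jdp2 (-1.57 ± 0.26) were both lower and lie on chromosome 12 with 46841 bp between them. Jdp2 had 30.8, 38.9 and 48.7 RPKM in wild type and 10.7, 8.55 and 22.2 in the knockout. Batf had lower levels, falling from 0.999, 6.00 and 1.93 RPKM to 0.0919, 1.08 and 0.406. The metallothionein genes Mt1 (-1.16 ± 0.19) and Mt2 form a further pair, 5521 bp apart on chromosome 8. Fth1, the ferritin heavy chain, fell from 38.6, 40.8 and 75.2 RPKM to 13.9, 12.9 and 25.6 (-1.53 ± 0.24), and Stat6, the factor of interleukin 4 signalling, from 5.55, 6.70 and 7.36 RPKM to 1.51, 2.42 and 2.61 (-1.41 ± 0.17). The formin gene Inf2 (-1.45), the myosin gene Myo1g (-1.32) and the plexin genes Plxnd1 (-1.32) and Plxna1 (-1.15) were called as well. These genes were chosen for naming after their values were seen. The shortest members, Mir455 and Mir3075, rested on 2 to 51 reads a library, and Mir455 lies within Col27a1, so their calls reflect few reads.

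**Figure D3:**
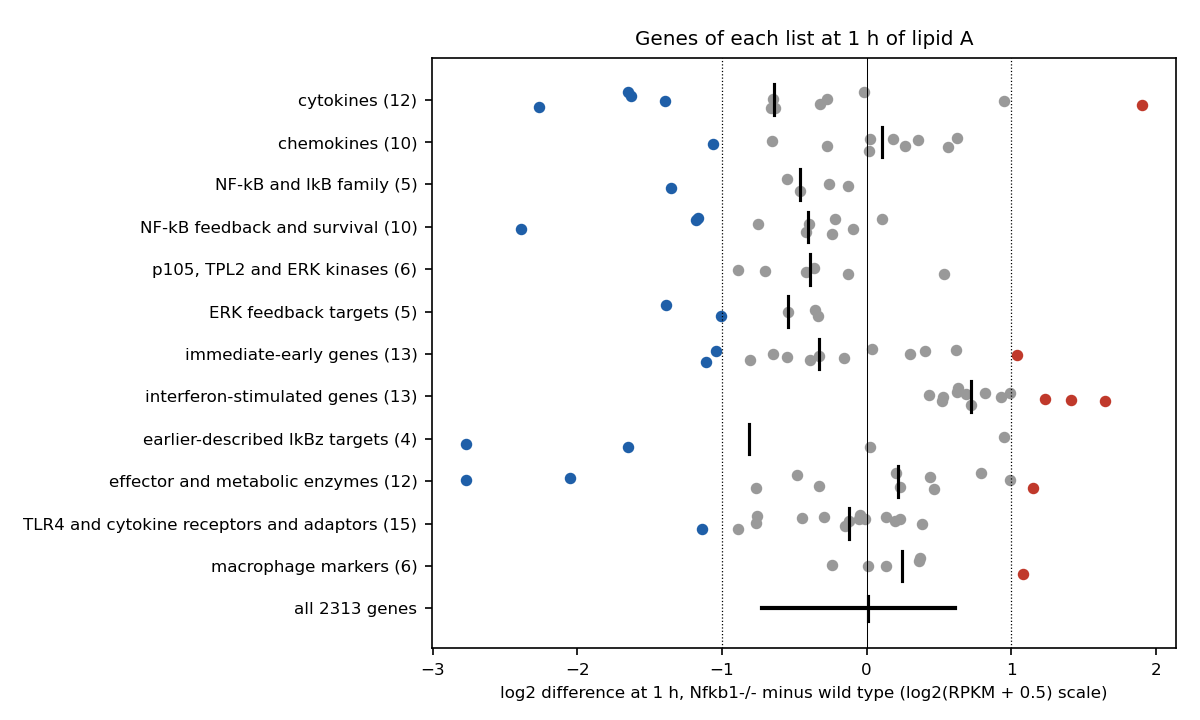
Log2 difference at 1 h (Nfkb1-/- minus wild type) of each tested gene of 12 lists, with the number tested in brackets, blue for lower, red for higher and grey for not called. Vertical bars mark medians, and the bottom line spans the 5th to 95th percentile of all 2313 genes. All interferon-stimulated genes lie right of 0.

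Type I interferon RNA was higher in the knockout, and so were 3 interferon-stimulated genes. Ifnb1, the gene of interferon beta (chromosome 4, 88167929 to 88168698), had 9.35, 2.45 and 16.8 RPKM in wild type and 28.9, 13.7 and 63.1 in the knockout. Replicate 2 was lowest and replicate 3 highest in both genotypes, so the groups overlapped, yet every knockout library was above its pair (1.91 ± 0.21, limma adjusted p = 1.8e-05). Ifnb1 was called with each pair left out in turn and lost its call only without the block (adjusted p = 0.176), of 13 alternatives. Of 13 tested interferon-stimulated genes 3 were higher, against 0.821% of all genes, and 0 lower, against 2.68%. All 13 were above 0, from 0.43 (Isg15) to 1.65, with a median of 0.72, while 1208 of all 2313 genes were above 0. Their median was already 0.27 at 0 h and 0.39 at 0.5 h, where all genes had medians of -0.17 and -0.03, and it was 0.35 in the Nfkbiz knockout at 1 h (all genes -0.08). At 2 h and 6 h it was -0.09 and 0.19, against -0.11 and 0.07 for all genes. The list was chosen with earlier results of these libraries known.

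Cmpk2, an interferon-induced nucleotide kinase, had 5.42, 40.2 and 9.84 RPKM in wild type and 16.9, 120 and 36.3 in the knockout (1.65 ± 0.38, limma adjusted p = 0.0082). Rsad2, which encodes viperin and lies 12762 bp from Cmpk2 on chromosome 12, had 27.2, 114 and 54.3 RPKM in wild type and 72.0, 252 and 178 in the knockout (1.41 ± 0.40, adjusted p = 0.031). Ifit3 had 0.172, 2.16 and 0.213 RPKM in wild type and 0.879, 7.12 and 1.07 in the knockout (1.23 ± 0.29, adjusted p = 0.0097). For these 3 genes replicate 2 was the highest library of each genotype. Their wild-type and knockout libraries overlapped, and none was called without replicate 1 or without replicate 3, nor without the block or with 1 block term per number for the whole series. Ifit1 (0.99), Mx1 (0.93), Ddx58 (0.82), Dhx58 (0.69) and Cxcl10 (0.62 ± 0.28) did not pass the adjusted p.

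The other higher genes were led by Neurl3, Med21 and Kcnj2. Neurl3, an E3 ubiquitin ligase, had 4.40, 5.21 and 5.99 RPKM in wild type and 9.41, 17.5 and 17.8 in the knockout (1.39 ± 0.21). Kcnj2, the potassium channel Kir2.1, had 1.32, 0.492 and 1.62 RPKM in wild type and 4.03, 2.26 and 4.18 in the knockout (1.31 ± 0.15, limma adjusted p = 2.2e-05). Med21, a Mediator subunit that overlaps Gm6654, rose from 0.968, 0.801 and 2.51 RPKM to 3.06, 3.76 and 5.70 (1.34 ± 0.19). In these 3 genes every knockout library lay above every wild-type library, and Kcnj2 was the 1 higher gene still called without the block. Ch25h, which makes 25-hydroxycholesterol, rose from 1.18, 0.434 and 0.658 RPKM to 3.23, 0.859 and 3.44 (1.15 ± 0.19), and was not called without replicate 3. Lipg (1.21), Gadd45a (1.19), Fam241a (1.15), Nampt (1.14) with Gdap10 inside it (1.12), Fam102b (1.05) and Gm6377 (1.02) were higher too. Without replicate 3 Lipg, Fam241a, Nampt and Gdap10 lost their calls, as Lipg and Gdap10 did without replicate 2, and the series-wide block term ended those of Lipg, Fam241a and H2-K2. The class I genes H2-Q4 (1.21) and H2-K2 (1.10) have near-identical copies among which reads may be split. Lyz2, lysozyme and a macrophage marker, was higher (1.08 ± 0.27, limma adjusted p = 0.014), but not without replicate 2 (0.151) or with 1 block term per number for the whole series (0.38). It was the 1 macrophage marker called of 6 tested (median 0.25), while Csf1r was at -0.24 and Mertk at 0.37, and the part of marker level in the results was not tested.

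Fam241a and Fam102b were the called genes on chromosome 3, which carries Nfkb1, at 7.675 and 26.5 Mb from it, and 0 of the 62 lower genes lay there, against 102 of all 2313 genes (4.41%). The lower genes had a median span of 15.0 kb and the higher genes 5.45 kb, against 14.8 kb for all genes tested. The median wild-type level was 5.08 RPKM in the lower set, 3.16 in the higher set and 2.14 over all genes.

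To ask whether the differing genes were ones that respond to lipid A, genes were sorted by their change from 0 to 1 h in the wild types of the Nfkbiz, Bcl3 and Nfkbid series, whose libraries the knockout comparison does not use. In those, 303 genes (13.1%) were induced and 240 (10.4%) repressed at least 2-fold by limma. The RPKM limit was set on 1 h libraries, so genes under it after lipid A were not counted. Without a limit 345 were induced and 1203 repressed. Of the 303 induced genes 37 were lower in the Nfkb1 knockout (12.2%) and 8 higher (2.64%). Of the 240 repressed genes 1 was lower and 2 higher, and of the 1770 others 24 were lower (1.36%) and 9 higher. Induced genes thus made up 59.7% of the lower set. Of the 62 lower genes 13 passed the RPKM limit only through wild type, among them the induced Il4i1, Csf2 and Micall2. The shares of lower genes therefore rest in part on wild-type levels at 1 h. Among 50 genes induced at least 8-fold, 9 were lower (18%) and 3 higher (6%). Most induced genes were not called, and their median difference was -0.12. Strongly induced lower genes included Il1b (5.96 from 0 to 1 h), Cxcl1 (5.22), C3 (4.48) and Jdp2 (4.30), whereas Cd81 (0.26), Fth1 (0.17) and Stat6 (0.02) were lower without being induced.

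Before stimulation no gene was called. At 0 h limma called 0 genes in either direction. By unadjusted p under 0.05 and 2-fold there were 3 lower and 3 higher genes (0.13% each), and the median over all genes was -0.17. The effect at 1 h differed from that at 0 h for 44 genes in the negative (1.9%) and 25 in the positive direction (1.08%). Il4i1 (-2.69 ± 0.37), Rac2 (-2.48 ± 0.29), Csf2 (-2.28 ± 0.23) and Micall2 (-2.25 ± 0.25) led the negative and Ifnb1 (1.87 ± 0.29), H2-K2 (1.66), Gadd45a (1.56) and Kcnj2 (1.46) the positive. With 1 block term per number for the whole series this call was lost for Ifnb1 (adjusted p = 0.327), H2-K2 (0.319) and Gadd45a (0.0843). The genes were chosen by their 1 h levels, and the added constant of 0.5 hides differences of genes far below it at 0 h. The unstimulated DMSO library is not part of this contrast. In it Csf2 had 0.0158, Ifnb1 0.0541, Il4i1 0.194 and Micall2 0.276 RPKM, while Rac2 had 2.11 and Kcnj2 1.15. Where genes were also this low at 0 h in the Nfkb1 series, the difference from 0 h largely repeats the 1 h effect. Since the median of this difference over all genes was 0.19, centring each library on its median gave 68 negative and 11 positive genes in place of 44 and 25. Single pairs mattered here, with 52, 20 and 12 negative genes and 16, 12 and 5 positive genes without replicates 1, 2 and 3. Rmrp (-2.25 ± 0.61) and Mir5134 (1.85 ± 0.48) were called too. Both lost this call with the series-wide block term (limma adjusted p = 0.0722 and 0.168) and without the block. They also lost it without replicate 2 and without replicate 3. Rmrp ranged from 701 to 29800 RPKM over the 6 libraries at 1 h, and Mir5134 spans 78 bp within Ccnf.

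The 62 lower genes were likewise followed over time. Of these, 0 were called lower at 0 h, 3 at 0.5 h (Kdm6b, Gpr132 and Cd52), 30 at 2 h and 13 at 6 h, and their medians were -0.15, -0.35, -0.96 and -0.36. The 30 were 48.4% of the 62 and 60% of the 50 genes called lower at 2 h (2.16% of all tested). At 0.5 h the 3 stood among 7 genes called (0.303%), and at 6 h the 13 stood among 26 (1.12%). From 0.5 to 6 h the C3 differences were -0.09, -2.05, -2.99 and -1.52. Those of Gpr132 were -1.36, -2.35, -2.67 and -0.87. Il1b, Batf, Rac2, Gadd45b and Micall2 were among the genes lower at 1, 2 and 6 h.

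**Figure D4:**
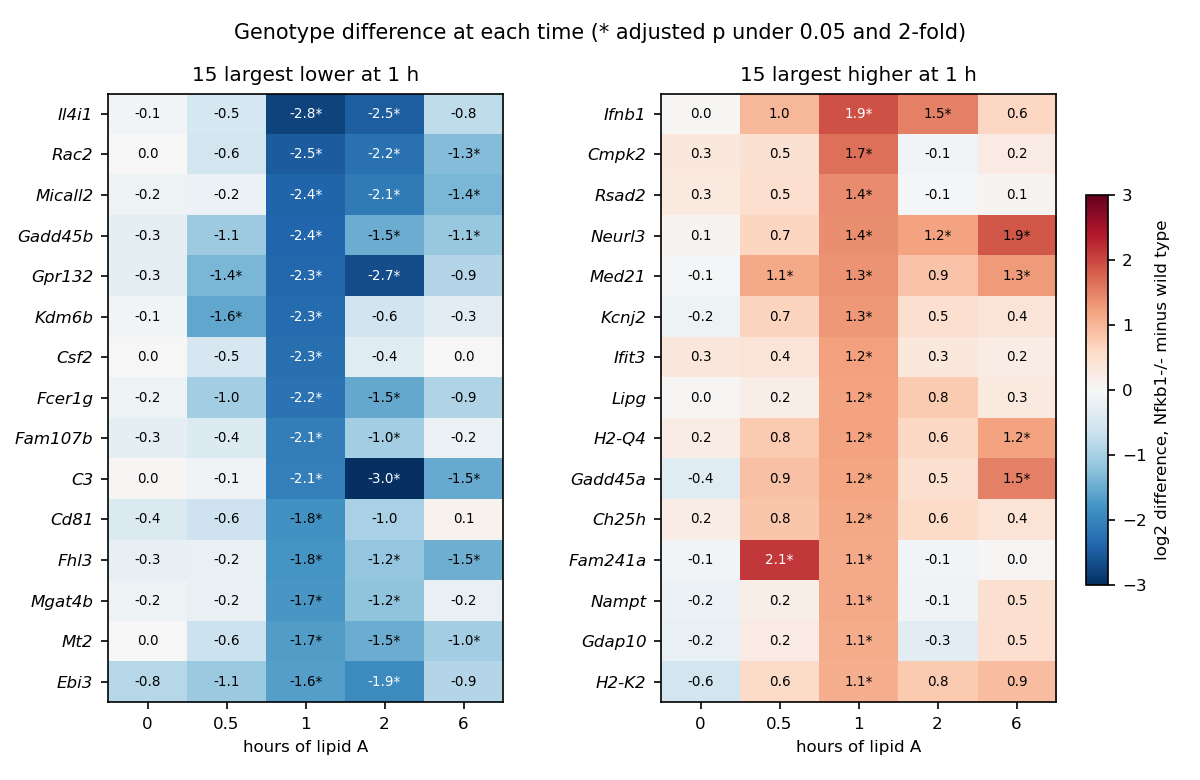
Log2 difference between Nfkb1-/- and wild type at 0, 0.5, 1, 2 and 6 h of lipid A for the 15 largest lower (left) and 15 largest higher genes (right) of the 1 h comparison, with an asterisk where limma gave an adjusted p under 0.05 and at least 2-fold. The 1 h column chose the genes. Kdm6b and Csf2 have smaller differences at 2 h, when both lay under 1 RPKM and the added constant shrinks differences. Il4i1, Rac2, Gpr132 and C3 are at -2.23 or lower at 2 h.

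A test of the 1 h effect against the 2 h effect called 9 genes in the negative (0.389%) and 2 in the positive direction (0.0865%). Csf2 (-1.91 ± 0.23, limma adjusted p = 0.00035), Kdm6b (-1.71 ± 0.20, adjusted p = 0.00035), Lasp1 (-1.59 ± 0.25), Fam129b (-1.39 ± 0.29) and Dusp5 (-1.30 ± 0.24) led the negative. At 2 h Csf2 was at 0.363, 0.0163 and 0.202 RPKM in wild type and 0.0484, 0.025 and 0.014 in the knockout. Kdm6b was then at 0.898, 0.448 and 0.267 RPKM in wild type and 0.288, 0.11 and 0.0998 in the knockout, so both genes had low levels in both genotypes. Each Kdm6b knockout library was still below its pair, as was Csf2 in replicates 1 and 3. The added constant of 0.5 shrinks differences at such levels, so for these genes the contrast with 2 h does not show that the fold difference faded. With 1 block term per number for the whole series Fam129b, Dusp5 and Calhm6 lost this call (adjusted p = 0.638, 0.225 and 0.586). Dusp5 RNA at 2 h was 0.882, 0.827 and 1.27 RPKM in wild type and 0.297, 1.25 and 1.45 in the knockout. Rnd3 (1.63) and Calhm6 (1.30) were the positive ones, with effects of -1.25 and -0.54 at 2 h. The median of the difference over all genes was 0.13. Leaving out replicates 1, 2 and 3 gave 14, 2 and 1 negative genes and 5, 2 and 0 positive genes, so these counts rest on few libraries.

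The 19 higher genes were chosen by their 1 h call, so their counts at other times describe that choice as well. Of them 2 were called higher at 0.5 h (Med21 and Fam241a), where 4 of all genes were (0.173%), and 2 at 2 h (Ifnb1 and Neurl3), where 6 were (0.259%). At 6 h 5 of them were called (H2-Q4, Gadd45a, Lyz2, Med21 and Neurl3) among 31 genes higher in all (1.34%). The test of the 1 h against the 2 h effect called 0 of the 19. Their medians were 0.59, 0.45 and 0.48 at these times and 0.03 at 0 h. Ifnb1 was at 0.99 ± 0.21 at 0.5 h, just under 2-fold, and at 1.502 ± 0.21 at 2 h. Its wild-type level had fallen to 1.13, 0.0555 and 0.776 RPKM by then, against 5.29, 1.5 and 1.77 in the knockout. Cmpk2 and Rsad2 were at -0.09 and -0.05 at 2 h, when wild-type Cmpk2 had reached 123, 173 and 247 RPKM and the knockout 76.2, 189 and 302. Fam241a was highest against wild type at 0.5 h (2.13 ± 0.34).

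IkBz, the product of Nfkbiz, binds p50, so the effects of the 2 knockouts at 1 h were set side by side, each against its own wild type. In the Nfkbiz series 40 genes were lower (1.73%) and 6 higher (0.259%). Of the 62 genes lower in the Nfkb1 knockout 18 were also lower there, which is 29.0% of the 62 and 45% of the 40, and 0 of the 19 higher genes were called higher there. The 18 were Il4i1 (-1.80), Rac2 (-2.05), Micall2 (-1.47), Csf2 (-1.20), Fcer1g (-1.505), C3 (-1.37), Il1b (-1.44), Cxcl1 (-1.19), Pdgfb (-2.17), Ebi3 (-1.26), Batf (-1.26), Fth1 (-1.53), Fhl3, Mgat4b, Dusp2, Fgd3, Hs6st1 and Ifitm2. Pdgfb had 18.2 and 11.1 RPKM in the wild type and 3.25 and 2.34 in the knockout of the Nfkbiz series. The difference between the 2 knockout effects was not significant for Il4i1 (-0.97 ± 0.42, limma adjusted p = 0.15), Rac2 (-0.44 ± 0.29, adjusted p = 0.38) and C3 (-0.68 ± 0.30, adjusted p = 0.17), which does not show that the effects are equal.

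**Figure D5:**
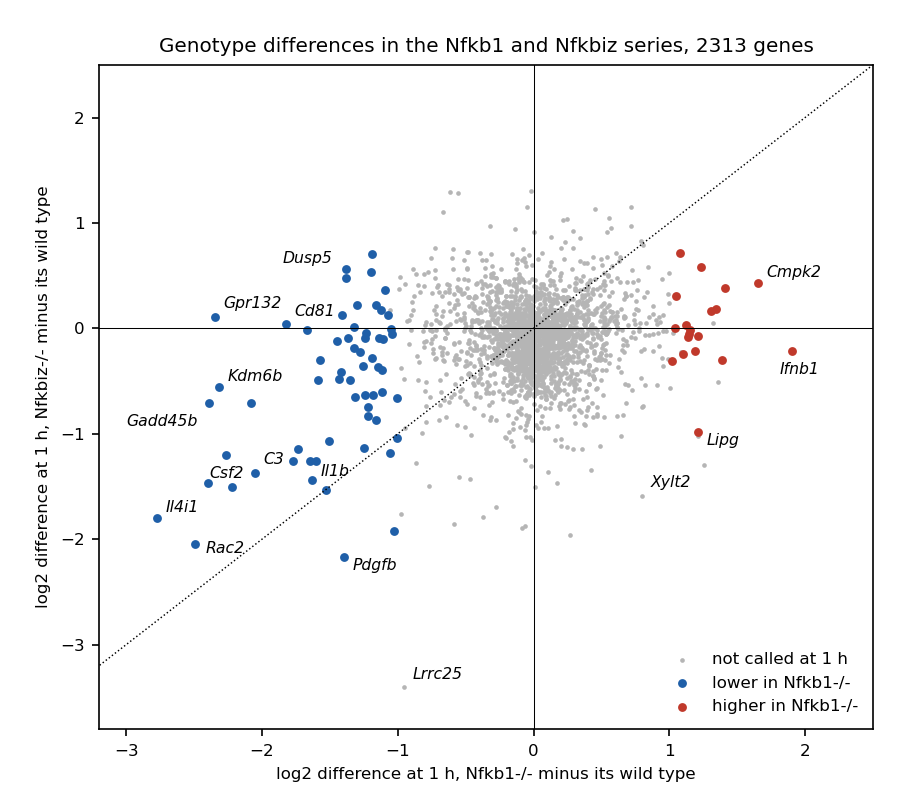
Log2 difference at 1 h between Nfkbiz-/- and its wild type (vertical, 2 libraries each) against that between Nfkb1-/- and its wild type (horizontal, 3 libraries each) for 2313 genes, with a dotted line of equality. Blue and red points are the genes called lower and higher in the Nfkb1 knockout. Gpr132 and Cd81 lie near 0 on the vertical axis, and Il4i1 and Rac2 are low on both.

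The test of the difference between the knockouts called 56 genes whose Nfkb1 effect was the more negative (2.42%) and 45 whose effect was the more positive (1.95%), around a median of 0.12. Gpr132 stood out on the negative side, with 11.7 and 8.84 RPKM in the Nfkbiz wild type and 13.2 and 9.19 RPKM in the Nfkbiz knockout, and a difference between effects of -2.46 ± 0.29 (limma adjusted p = 2.1e-05). Kdm6b (-1.76 ± 0.20), Gadd45b (-1.68 ± 0.48) and Cd81 (-1.86 ± 0.37) were further genes with the more negative effect in the Nfkb1 knockout. For Dusp5 (-1.94 ± 0.24), Oaf (-1.89 ± 0.23) and Adora2b (-1.86 ± 0.39) the Nfkbiz effect was positive, at 0.56, 0.70 and 0.48. On the positive side, Ifnb1 was at -0.21 ± 0.27 in the Nfkbiz knockout, and the effects differed by 2.12 ± 0.35 (adjusted p = 0.00071). Lipg, the endothelial lipase gene, was higher in the Nfkb1 knockout and at -0.99 in the Nfkbiz knockout (2.20 ± 0.35). Xylt2 differed in the same way (0.80 against -1.59, difference 2.39 ± 0.26), and Lrrc25 was far lower in the Nfkbiz knockout (-3.40 against -0.96, difference 2.45 ± 0.31). Snord7 (2.23 ± 0.65) is 96 bp long and lies within other genes. From the 1 h libraries alone the difference was not called for Cd81 (limma adjusted p = 0.0752) and Lipg (0.0513). Without the block it was not called for Dusp5, Oaf, Adora2b, Cd81, Snord7, Lipg and Ifnb1. With 1 block term per number for the whole series the call of the difference was lost for Ifnb1 (adjusted p = 0.183), Lipg (0.147), Adora2b (0.0729) and Snord7 (0.0875). The negative count was 15 without replicate 1 and 12 without replicate 2, and the positive count 8 without replicate 1.

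An ERK inhibitor series had 1 library per condition, so its values have no replicate check and no test. At 60 min of lipid A, 21 of the 62 lower genes were at least 2-fold lower with the inhibitor than with DMSO and 1 was higher (C3), against 4.37% lower and 3.16% higher among all genes tested. Their median difference was -0.62, and that over all genes was -0.06. Kdm6b had 9.92 RPKM with DMSO and 2.41 with the inhibitor, Dusp5 6.77 and 0.713, Fam129b 17.1 and 2.49, and Pdgfb 7.12 and 1.88. In contrast Rac2 (4.98 and 3.89), Gadd45b (22.9 and 22.7), Fcer1g (18.5 and 20.5) and Bcl3 (6.93 and 6.96) moved by less than 2-fold. So did Dusp2 (24.5 and 25.9), although it is on the list of ERK feedback targets. C3 had 9.75 RPKM with DMSO and 22.5 with the inhibitor. Of the 19 higher genes 8 were at least 2-fold higher with the inhibitor, with a median of 0.86: Ifnb1 (2.38 and 6.88 RPKM), Cmpk2 (7.57 and 32.3), Rsad2 (20.2 and 84.0), Ifit3, Nampt, Gdap10, Med21 and Fam241a. Kcnj2 had 0.864 and 0.92 RPKM.

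In the polyadenylated RNA of J2 macrophages at 2 h, again 1 library per genotype, Nfkb1 had 145 RPKM in wild type and 40.4 in the cells labelled Nfkb1-/-. Of the 62 genes lower at 1 h in chromatin RNA 7 were at least 2-fold lower there (Micall2, Gadd45b, Gpr132, C3, Mgat4b, Ebi3 and Ier5) and 1 higher (Dusp2), against 2.03% lower and 2.25% higher of all genes. C3 had 59.2 RPKM in wild type and 6.54 in the knockout, and Micall2 had 12.2 and 1.38. Of the 19 higher genes 4 were at least 2-fold higher (Ch25h, Neurl3, Lipg and Gm6377) and 2 lower (Rsad2 and Ifit3). Ch25h had 17.3 and 95.6 RPKM, while Ifnb1 had 4.79 and 5.38. Time, RNA fraction and cells differ from the 1 h comparison, so the values stand side by side only.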

How the data were processed

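RNA-seq values of the series were deposited by the authors as RPKM per gene. HISAT2, SAMtools and mm9 are named in the submitters' processing notes, and versions and the counting rule are not given in the sources used here. Tests on the values showed that RPKM of chromatin RNA use the length of the full gene with its introns. With that length, every low value (at most 30 reads) of the knockout series came to whole reads within a tolerance of 0.02, with 1 read as the floor, as did 97.5% in the DMSO and ERK inhibitor libraries used. No depth was recovered for the J2 libraries. Depth was recovered from that step and was 7.86 to 32.7 M reads in the 30 Nfkb1 series libraries. Counting error limits short genes with few reads. Positions are mm9, counted from 1.

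Values were analysed as log2(RPKM + 0.5) with limma 3.58.1 in R 4.3.3 (lmFit, eBayes with a trend, two-sided). The 30 libraries of the Nfkb1 series entered 1 fit with a term for each replicate number at each time and a genotype effect per time, and p-values were adjusted by Benjamini and Hochberg over 2313 genes. Calls needed an adjusted p under 0.05 and 2-fold. The 2 libraries that share a number deviated together, with residual correlations of 0.727 to 0.858 at 1 h and 0.558 to 0.901 over all times, so the numbers were taken to pair the libraries. The Nfkbiz comparison used 50 libraries of both series, and the response to lipid A used wild types of the other 3 series with a pair term (Nfkbid replicates 2 and 3). The fit was run on simulated data with planted effects, independent noise and the same pair terms. That run therefore does not check the choice of block. Named genes were Nfkb1, every called gene of the lists, the 15 largest changes in each direction and the 5 largest for each difference of effects. Further genes were chosen after their values were seen, and the members and lists were chosen with earlier results of these data known. Alternatives changed the block, the constant, the RPKM limit, the centring, the library weights, the fold limit and the replicates.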

Additional observations from a re-analysis of the deposited data

Results flagged for a closer look

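Each result below was singled out because an effect at 1 h differed from the effect under the same contrast at another time or in another knockout, by a limma test of the difference itself with Benjamini and Hochberg adjustment. None of the causes was tested.

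Against 0 h, 44 genes had a negative and 25 a positive difference of effects. The largest negative differences (log2) were those of Il4i1 (-2.69), Rac2 (-2.48), Csf2 (-2.28), Rmrp (-2.25) and Micall2 (-2.25). The largest positive ones were those of Ifnb1 (1.87), Mir5134 (1.85), H2-K2 (1.66), Gadd45a (1.56) and Kcnj2 (1.46). Rmrp and Mir5134 were not called at 1 h itself (-0.82 ± 0.43 and 1.03 ± 0.34). Their calls against 0 h were lost without the block and with the series-wide block term.

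Against 2 h, 9 genes were negative and 2 positive. They were led by Csf2 (-1.91), Kdm6b (-1.71), Lasp1 (-1.59), Fam129b (-1.39) and Dusp5 (-1.30) and, on the positive side, by Rnd3 (1.63) and Calhm6 (1.30). Csf2 and Kdm6b lay under 1 RPKM at 2 h, where the added constant shrinks differences. Rnd3 was at 0.38 ± 0.22 at 1 h and not called.

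Against the Nfkbiz knockout at 1 h, 56 genes were negative and 45 positive. Gpr132 (-2.46), Dusp5 (-1.94), Oaf (-1.89), Adora2b (-1.86) and Cd81 (-1.86) led the negative differences. Lrrc25 (2.45), Xylt2 (2.39), Snord7 (2.23), Lipg (2.20) and Ifnb1 (2.12) led the positive ones. Lipg rested on pair 2 for its level, with 2.37 RPKM in wild type and 10.3 in the knockout against at most 1.72 RPKM in the other 4 libraries, and it was not called at 1 h without replicate 2 or without replicate 3.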

How the results depend on the processing

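The lower set at 1 h was the more stable. Its 62 genes became 28 without the replicate block, 36 with a limit of 3 RPKM, 146 without the fold limit, and 47 to 65 with a replicate pair left out. Its count stayed within 1.5 times of 62 under the other alternatives. The 19 higher genes became 1 without the block, 12 with 1 block term per number for the whole series, 37 with a constant of 0.1, 12 with a constant of 1, 110 without the fold limit, and 10 to 35 with a pair left out. Since same-numbered libraries pair, the block removes spread that they share. The named genes that were recomputed kept their sign, which is no check of stability. The block, the RPKM limit and the fold limit do not alter the estimate, and all genes called at 1 h moved the same way in the 3 pairs.

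For 1 h against 0 h (44 negative, 25 positive) the counts were 6 and 0 without the block, 17 and 2 with the series-wide block, 21 and 6 without an RPKM limit, 68 and 11 with centring and 68 and 14 with library quality weights. The negative count was 29 with a limit of 3 RPKM, and the positive count 14 with a constant of 1 and 70 without the fold limit. With a pair left out they were 12 to 52 and 5 to 16. For 1 h against 2 h (9 and 2) they were 1 and 0 without the block, 3 and 1 with the series-wide block, 5 and 1 at 3 RPKM, 3 and 5 without a limit, 27 and 4 with centring and 34 and 10 with weights. The negative count was 4 with a constant of 0.1, and the positive count 5 without the fold limit. With a pair left out they were 1 to 14 and 0 to 5.

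Against the Nfkbiz knockout (56 and 45) the counts were 6 and 2 without the block, 21 and 8 with the series-wide block, 32 and 27 from the 1 h libraries alone, 27 and 23 at 3 RPKM and 97 and 88 without the fold limit. With a replicate left out they were 12 to 55 and 8 to 31, where leaving out number 1 or 2 leaves 1 Nfkbiz pair that is assumed to vary like the others. Repressed genes in the response to lipid A numbered 61 at 3 RPKM and 1203 without a limit, against 240. Induced genes numbered 239 and 345, against 303. The RPKM limit was set on 1 h libraries, so genes under it after lipid A were left out. Apart from those alternatives that test fewer or more genes or samples, the cause was not tested. Genes near 1 RPKM in the shallow replicate 1 and very short genes are limited by depth.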
